A study of Mus musculus with 15 samples.

Results

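10 genes of the TNF system were followed in Mouse Embryonic Fibroblasts (MEFs): *Tnf* itself, the receptors *Tnfrsf1a* (TNFR1), *Tnfrsf1b* (TNFR2), *Tnfrsf11b* (osteoprotegerin), *Tnfrsf12a* (Fn14), *Fas* and *Cd40*, and the adaptors *Traf1*, *Traf2* and *Birc3* (cIAP2). They were taken by name from the 23462 genes that the probes of the array could be matched to, and all 10 were found, with 14 of the 56605 distinct probes. The cells were the 3T3 line, an established clone of Balb/c fibroblasts, so each result is that of 1 line in culture. RNA was hybridized to 15 one-color whole Mouse 60-mer oligonucleotide microarrays, 3 for each of 5 groups: untreated controls, and cells given TNFα (10 ng/ml), TGFß1 (5 ng/ml), IL1β (1 ng/ml) or IL6 (20 ng/ml) together with its soluble receptor sIL6Rα (25 ng/ml). The study describes a 24-h stimulation and 3 independent experiments for the control, TNFα and TGFß1 groups. The labels name 24 or 72 h without assigning either to the IL1β and IL6 groups, so their time is unknown here, and whether their arrays are separate cultures is not stated, so that their p-values measure the spread between arrays, which may be technical. All comparisons share 1 estimate of the spread from the 15 arrays, so that spread also enters the TNFα and TGFß1 p-values. An array is called below by its condition and by the number that opens its label.

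TNF is made as a trimer on the cell surface, shed by the protease ADAM17, and read by a pair of receptors, TNFR1 on most cells and TNFR2 on fewer. Ligand-bound TNFR1 gathers TRADD, TRAF2, the ubiquitin ligases cIAP1 and cIAP2 and RIPK1, and the ubiquitin chains built there recruit the IKK complex that releases NF-kB. The same receptor can instead lead to caspase-8 and cell death, as Fas does directly. In fibroblasts TNF is known for switching on chemokine and protease genes, and several members of its own pathway, among them *Birc3* and *Traf1*, are textbook targets of NF-kB.

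The *Fas*, *Traf1* and *Birc3* promoters are shown because these 3 genes stood higher in MEFs treated by TNFα than in every other group. Each sequence is the 250 bases before the gene's RefSeq start, written 5′ to 3′ on the gene's strand (RefSeq, GRCm38.p6), at chr19:34290409-34290658 on the plus strand for *Fas*, at chr2:34961773-34962022 on the minus strand for *Traf1* and at chr9:7873171-7873420 on the minus strand for *Birc3*. Capitals mark a match to 1 of 4 motifs searched on both strands: the NF-kB consensus, the AP-1 motif TGANTCA, the TATA box TATAAA and the interferon response motif.
Fas: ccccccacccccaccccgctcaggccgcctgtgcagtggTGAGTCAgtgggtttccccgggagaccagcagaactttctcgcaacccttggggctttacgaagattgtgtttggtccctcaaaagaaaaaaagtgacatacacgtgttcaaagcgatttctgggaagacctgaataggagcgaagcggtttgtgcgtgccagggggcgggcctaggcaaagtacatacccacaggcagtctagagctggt
Traf1: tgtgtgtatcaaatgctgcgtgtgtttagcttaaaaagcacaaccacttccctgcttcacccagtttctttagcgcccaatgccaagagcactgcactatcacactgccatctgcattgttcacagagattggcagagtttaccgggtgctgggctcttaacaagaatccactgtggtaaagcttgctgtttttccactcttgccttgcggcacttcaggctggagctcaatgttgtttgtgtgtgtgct
Birc3: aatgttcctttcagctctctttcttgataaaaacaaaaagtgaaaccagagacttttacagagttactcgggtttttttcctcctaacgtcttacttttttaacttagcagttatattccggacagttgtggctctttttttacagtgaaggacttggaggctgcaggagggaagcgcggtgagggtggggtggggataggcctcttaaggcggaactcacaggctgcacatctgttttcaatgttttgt
Windows of 300 bases, which add the 50 after the start, were searched for 8 of the 10 members and for 32851 genes and gene models in all. *Fas* held TGAGTCA, an AP-1 motif that reads as a match on both strands, at -211 to -205 from its start, while 7.81% of all windows hold this motif. *Traf1* and *Birc3* matched none of the 4 motifs. The NF-kB consensus matched in 0 of the 8 member windows and in 8.46% of all windows. The TATA box stood in the *Tnf* window alone of these members, at -29 to -24 (13.6% of all windows), and the interferon response motif in that of *Tnfrsf1b*, at -10 to -1 (3.44%). These are matches of letters in a short window and say nothing of binding.

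Levels are log2 of the processed spot intensity relative to the array's own 75th percentile, which lay at an intensity of 508 to 683, so a level of 0 is that percentile and a difference of 1 is a doubling. The software marked 48.3% to 54.8% of the probes per array as well above background, and 0 spots were saturated. A probe entered the test if all 3 arrays of some group showed it well above background, as 29333 probes did, among them 11 probes of 9 members; *Cd40* was not tested. A difference was called at a q-value below 0.05 (limma, Benjamini-Hochberg over all probes tested) and a fold-change of 1.5 or more in either direction. All 10 fibroblast markers, *Col1a1* and *Vim* among them, were well above background on all 15 arrays, while the leukocyte markers *Ptprc*, *Adgre1* and *Lyz2*, the endothelial *Cdh5*, *Kdr* and *Tek* and the epithelial *Cdh1* and *Krt5* were so on none. Of the other markers, 4 of 8 leukocyte genes (*Itgam*, *Csf1r*, *Cd68* and *Cd3e*) and 1 of 4 endothelial genes (*Pecam1*) were above background on all arrays. The arrays lay on 2 slides of 8 and 7, each slide holding arrays of every group, and values with the slide as a block are given where they change a call against control, between TNFα and IL1β or between TNFα and TGFß1. In RNA from whole cultures, fewer cells of a type and less RNA per cell cannot be told apart.

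After TNFα, 4 of the 9 members tested were called against control: *Fas*, *Traf1* and *Birc3* rose, by 7.57-fold, 23.4-fold and 4.76-fold, and *Tnfrsf1a* fell by 0.73 on the log2 scale. Over all probes tested 10.2% were called, 4.12% higher and 6.06% lower. The median difference of the 9 members was 1.04, beside 0.04 over all probes. That median is the value of 1 member, *Tnf*, a faint probe that was not called (limma q-value 0.251). With the slide as a block the *Tnf* difference was 0.64 (limma q-value 0.0283). TGFß1 called 5 of the 9, with *Tnfrsf11b* and *Tnfrsf12a* higher and *Tnfrsf1a*, *Fas* and *Birc3* lower, where 18% of all probes were called (7.17% higher and 10.8% lower), and the median difference was -0.29 beside 0.05. Here the median is the value of *Tnfrsf1b*, which was not called. IL1β called *Fas* alone, higher, where 0.252% of all probes were called, 0.245% higher. IL6 with sIL6Rα called 0 of the 9 in limma, where 0.0648% of all probes were called, and 2 members (*Tnfrsf1a* and *Fas*) had an unadjusted p below 0.05. No share of all probes at that unadjusted limit is given, so these 2 have no background beside them. The 4 comparisons share the same 3 control arrays.

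**Figure D1:**
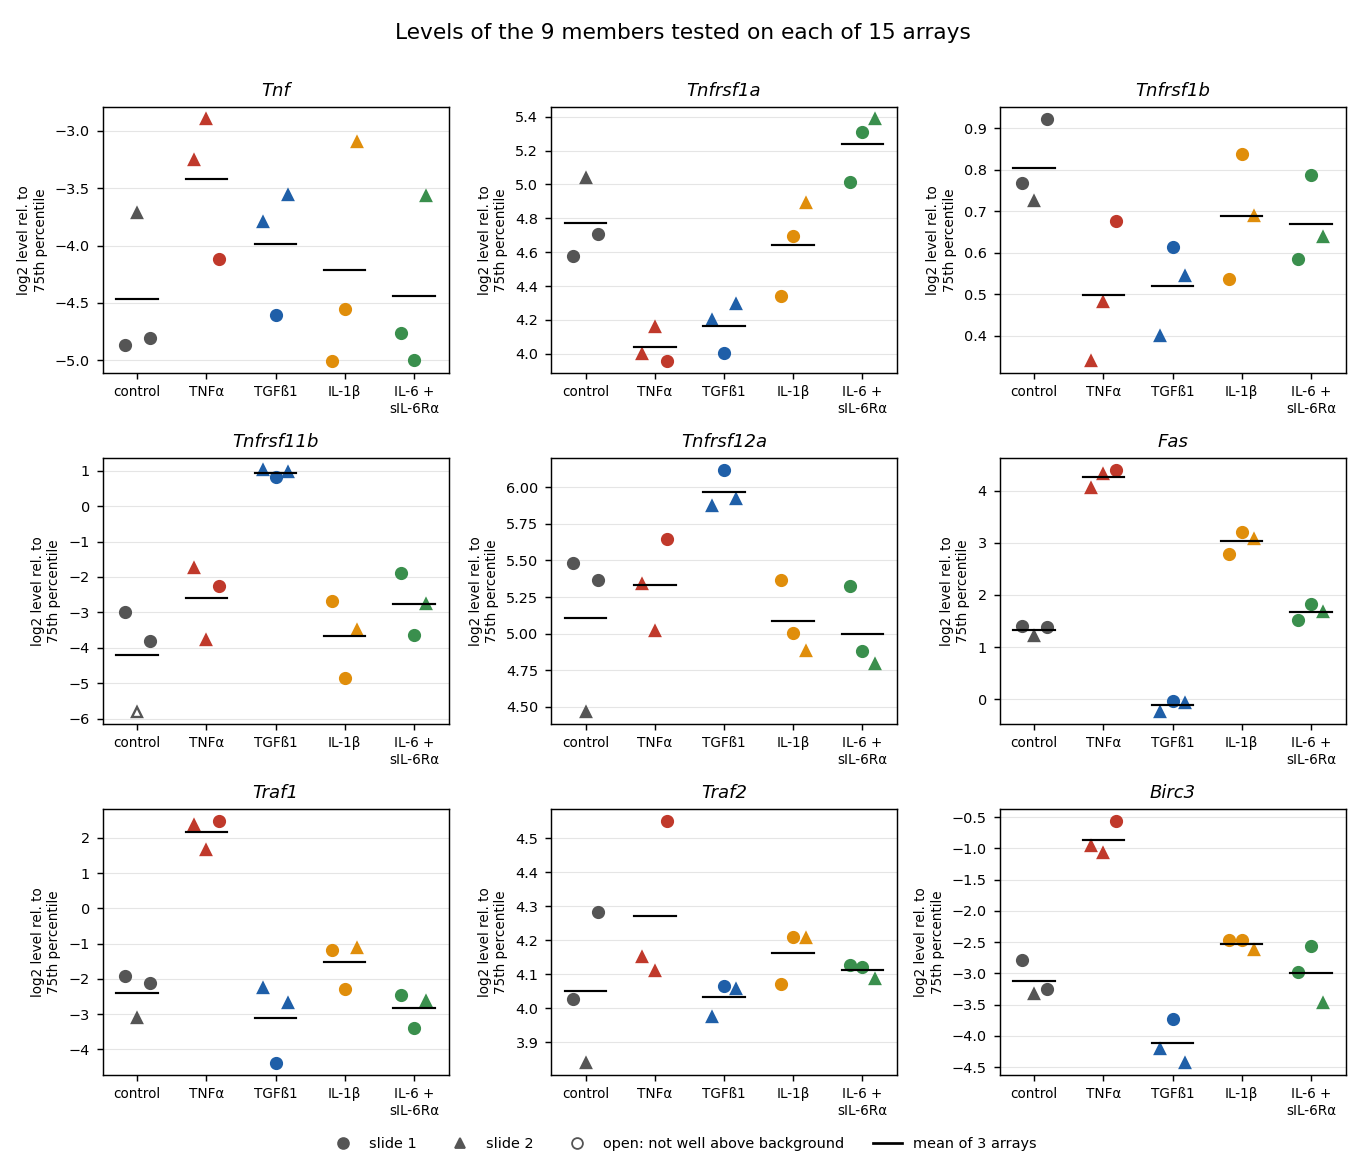
Level of the brightest probe of each of the 9 members tested (log2 relative to the array's 75th percentile) on the 15 arrays, by group, with circles for slide 1, triangles for slide 2, an open symbol for a spot not well above background and a line at the mean of 3 arrays; each panel has its own scale. *Fas*, *Traf1* and *Birc3* were highest after TNFα, *Tnfrsf11b* and *Tnfrsf12a* were highest after TGFß1, and *Traf2* stayed between 3.84 and 4.55 on all arrays.

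*Fas* (NM_007987, chromosome 19) encodes a death receptor that carries a death domain and binds Fas ligand. Its level was 1.41, 1.21 and 1.39 on control 1, 6 and 11. It was 4.06, 4.32 and 4.39 on TNFα 4, 9 and 14, and 2.78, 3.22 and 3.08 on IL1β 5, 10 and 15. After TGFß1 it was -0.23, -0.03 and -0.07 on arrays 2, 7 and 12, and after IL6 with sIL6Rα it was 1.53, 1.83 and 1.68 on arrays 3, 8 and 13. No group overlapped another, and the spread within a group was at most 0.43. TNFα raised *Fas* by 2.92 on the log2 scale (SE 0.14, limma q-value 1.55e-07), which placed it at rank 108 from the top among the probes tested. IL1β raised it by 1.69 (SE 0.14, limma q-value 0.000212). TNFα stood above IL1β by 1.23 (SE 0.14, limma q-value 0.000292). TGFß1 lowered *Fas* by 1.45 (SE 0.14, limma q-value 2.31e-05), and the gap between TNFα and TGFß1 came to 20.6-fold. The IL6 group stood 0.34 above control, with a 95% confidence interval of 0.04 to 0.64 and a q-value of 1.00. The order was therefore TNFα, IL1β, IL6, control and TGFß1, in which IL6 and control were the only neighbours that were not called. A second *Fas* probe (NM_001146708), designed on another transcript, was not well above background on any array.

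*Traf1* (NM_009421, chromosome 2) encodes an adaptor that pairs with TRAF2 and lacks the RING domain of the other TRAF proteins. Its level was -1.93, -3.12 and -2.12 on control 1, 6 and 11, and 2.36, 1.64 and 2.47 on TNFα 4, 9 and 14. The lowest TNFα array lay 3.57 above the highest control array. It was -1.18, -2.28 and -1.13 after IL1β, -2.26, -4.38 and -2.68 after TGFß1 and -2.45, -3.39 and -2.63 after IL6, in array order. In every group the array numbered 6 to 10 was the lowest. The rise after TNFα was 4.55 (SE 0.53, 23.4-fold, limma q-value 0.000146), at rank 24 from the top of all probes tested. The IL1β arrays overlapped the controls, with a difference of 0.86 (95% confidence interval -0.29 to 2.01, limma q-value 1.00), and TNFα exceeded IL1β by 3.69 (SE 0.53, limma q-value 0.00159). The TGFß1 difference of -0.71 (SE 0.53, limma q-value 0.361) was not called, and within slide 1 and slide 2 it was -2.35 and 0.66. Leaving out TGFß1 2 gave -1.14, and leaving out TGFß1 7, the lowest array, gave -0.08. With the runs of label numbers (1 to 5, 6 to 10 and 11 to 15) entered as a block the same difference was called, at a q-value of 0.0273.

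*Birc3* (NM_007464, chromosome 9) encodes cIAP2, the ubiquitin ligase that TRAF2 brings to TNFR1. Its level was -2.78, -3.34 and -3.25 on the control arrays, -0.96, -1.08 and -0.56 on the TNFα arrays and -2.47, -2.47 and -2.63 on the IL1β arrays. It was -4.20, -3.72 and -4.43 after TGFß1 and -2.97, -2.56 and -3.47 after IL6. The TNFα arrays were above and the TGFß1 arrays below all others. TNFα raised *Birc3* by 2.25 (SE 0.25, 4.76-fold, limma q-value 9.34e-05) and exceeded IL1β by 1.65 (SE 0.25, limma q-value 0.00195). TGFß1 lowered it by 1.00 (SE 0.25, limma q-value 0.0114), a call that was lost without TGFß1 12, where the difference was -0.84, and with normexp background correction (-0.41, q-value 0.0743). The 3 IL1β arrays lay just above the 3 controls, by 0.15 at the closest, and the difference of 0.60 had a q-value of 1.00.

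*Traf2* (NM_001290413, chromosome 2), the adaptor that brings cIAP1 and cIAP2 to TNFR1, was between 3.84 and 4.55 on all 15 arrays. Its difference from control was 0.22 after TNFα (95% confidence interval -0.07 to 0.51, limma q-value 0.337), -0.02 after TGFß1 (-0.31 to 0.28), 0.11 after IL1β (-0.18 to 0.41) and 0.06 after IL6 (-0.23 to 0.36). None was called, and the intervals leave room for a change of at most 0.51 in either direction. A second probe of the same transcript differed from control by 0.26 after TNFα and by 0.02 after TGFß1, and was not called either. Of the 3 adaptors, *Traf1* and *Birc3* rose with TNFα while *Traf2* was not called in any comparison.

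**Figure D2:**
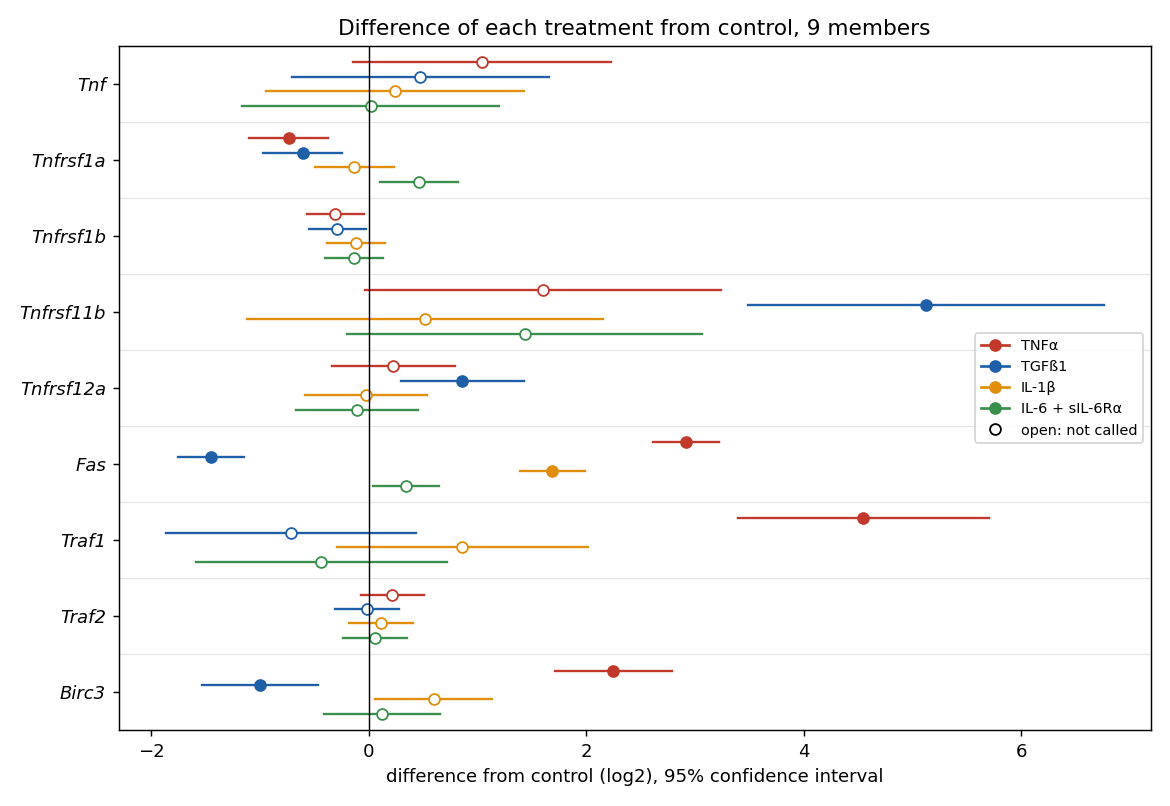
Difference of each treatment from control (log2) for the 9 members tested, with its 95% confidence interval from the limma fit of all 15 arrays; filled points were called at a q-value below 0.05 and a fold-change of at least 1.5. The intervals of *Tnfrsf11b*, *Tnf* and *Traf1* were the widest, and *Fas* lay at 2.92 after TNFα, 1.69 after IL1β and -1.45 after TGFß1.

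*Tnfrsf1a* (NM_011609, chromosome 6), which encodes TNFR1, was 4.58, 5.04 and 4.70 on the control arrays. It was 4.00, 4.16 and 3.96 after TNFα, 4.20, 4.00 and 4.30 after TGFß1, 4.34, 4.69 and 4.89 after IL1β and 5.02, 5.31 and 5.39 after IL6. Both the TNFα and the TGFß1 arrays lay wholly below the controls, and of the IL6 arrays only array 3 did not exceed the highest control. TNFα lowered it by 0.73 (SE 0.17, 1.66-fold, limma q-value 0.0121), a call that was lost without TNFα 4, where the difference was -0.71. TGFß1 lowered it by 0.61 (SE 0.17, limma q-value 0.0189). That fold of 1.52 sits next to the limit of 1.5, and the call was lost without control 6 (-0.47) and without TGFß1 7 (-0.53). A second probe of the transcript moved the same way, by -1.04 after TNFα (limma q-value 0.00199) and by -0.94 after TGFß1 (limma q-value 0.00223). TNFα against IL1β gave -0.60 with a limma q-value of 0.0550 on the brighter probe and -0.75 with a limma q-value of 0.0250 on the other. The brighter probe was called in 7 of the 14 alternative settings listed at the end. With the slide as a block, 1 of these, it was at -0.69 (limma q-value 0.00444). It was also called without IL1β 5 (-0.75, q-value 0.0282) and without control 6 (-0.60, q-value 0.0387). The IL6 difference of 0.46 (95% confidence interval 0.10 to 0.83) had a q-value of 1.00.

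*Tnfrsf1b* (NM_011610, chromosome 4), the gene of TNFR2, was 0.77, 0.72 and 0.92 on the control arrays, 0.34, 0.48 and 0.68 after TNFα and 0.40, 0.61 and 0.54 after TGFß1. All of these treated arrays were below all controls. The differences were small, -0.31 after TNFα (SE 0.12, limma q-value 0.126) and -0.29 after TGFß1 (SE 0.12, limma q-value 0.108), and neither was called. After IL1β and IL6 the arrays ranged from 0.54 to 0.84 and overlapped the controls. Members whose arrays did not overlap the controls numbered 5 of 9 for TNFα and 6 of 9 for TGFß1, beside 29.6% and 39.1% of all probes tested.

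*Tnfrsf11b* (NM_008764, chromosome 15) encodes osteoprotegerin, the secreted decoy receptor that binds RANK ligand. Its level was -3.00, -5.80 and -3.80 on the control arrays, of which control 6, the lowest, was not well above background. It was 1.02, 0.81 and 0.95 after TGFß1. The other groups were -1.75, -3.78 and -2.25 after TNFα, -2.68, -4.86 and -3.50 after IL1β and -1.90, -3.64 and -2.76 after IL6. The 3 TGFß1 arrays lay within 0.20 of each other and stood at least 2.57 above every other array. TGFß1 raised it by 5.13 (SE 0.75, limma q-value 0.000476), and TNFα stood below TGFß1 by 3.52 (SE 0.75, limma q-value 0.00639). The size of this rise depended on control 6, the array below background: without it the rise was 4.33, and with normexp background correction it was 3.54, both still called. After TNFα the difference from control was 1.60, with a 95% confidence interval of -0.03 to 3.24 and a limma q-value of 0.197, and it was 0.80 without control 6 and 2.20 without control 1. As for *Traf1*, the array numbered 6 to 10 was the lowest of its group in all 5 groups. With these runs entered as a block the TNFα difference was called (q-value 0.0130), and with run and slide as blocks it was 1.80 (q-value 0.00109).

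*Tnfrsf12a* (NM_013749, chromosome 17) encodes Fn14, the receptor of the cytokine TWEAK. It was 5.49, 4.47 and 5.37 on the control arrays and 5.87, 6.12 and 5.92 on the TGFß1 arrays, which lay above all other arrays. The TNFα arrays were 5.34, 5.02 and 5.65, and the IL1β and IL6 arrays ranged from 4.79 to 5.36. TGFß1 raised it by 0.86 (SE 0.26, 1.82-fold, limma q-value 0.0291). The call rested on few arrays: it was lost without control 6, where the difference was 0.54, and without any 1 of the 3 TGFß1 arrays, where it was 0.79 to 0.91. With the slide as a block the rise was 1.01 (q-value 0.00153). TGFß1 exceeded TNFα by 0.63, which was not called (limma q-value 0.132). That difference was called with the slide as a block (q-value 0.0216), with run and slide as blocks (q-value 0.000128) and without control 6 (q-value 0.0418).

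*Tnf* (NM_013693, chromosome 17), the ligand, gave a faint signal. Its brighter probe was -4.87, -3.72 and -4.80 on the control arrays, -3.25, -2.90 and -4.12 after TNFα and -3.79, -4.60 and -3.56 after TGFß1. It was -5.00, -4.56 and -3.09 after IL1β and -4.76, -5.00 and -3.57 after IL6. All 7 arrays of slide 2 lay above all 8 arrays of slide 1, whatever the group. The difference between TNFα and control was 1.04 (95% confidence interval -0.14 to 2.23, limma q-value 0.251), and 2 of the 3 TNFα arrays but only 1 of the 3 control arrays were on slide 2. With the slide as a block it was 0.64 and was called (limma q-value 0.0283), and within slide 1 and slide 2 it was 0.72 and 0.64. With run and slide as blocks it was 0.65 and was also called (limma q-value 0.00851). The other *Tnf* probe was well above background on TNFα 14 alone, so it was not tested. Its levels were -8.02, -7.86 and -7.25 on the control arrays and -6.22, -5.44 and -4.85 on the TNFα arrays, which lay above the other 12 arrays.

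*Cd40* (NM_011611, chromosome 2), a receptor known from the dialogue of B cells with T cells, was not well above background on any of the 15 arrays. Its signal lay between -7.89 and -7.05 on the control arrays, between -6.77 and -5.51 after TNFα and between -6.48 and -5.64 after TGFß1. It lay between -7.70 and -6.53 after IL1β and between -7.44 and -6.81 after IL6. The order of the groups is not read as a difference. The dimmest signal marked well above background lay between -5.72 and -4.99 on the 15 arrays, so these are bounds and no fold-change is given.

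**Figure D3:**
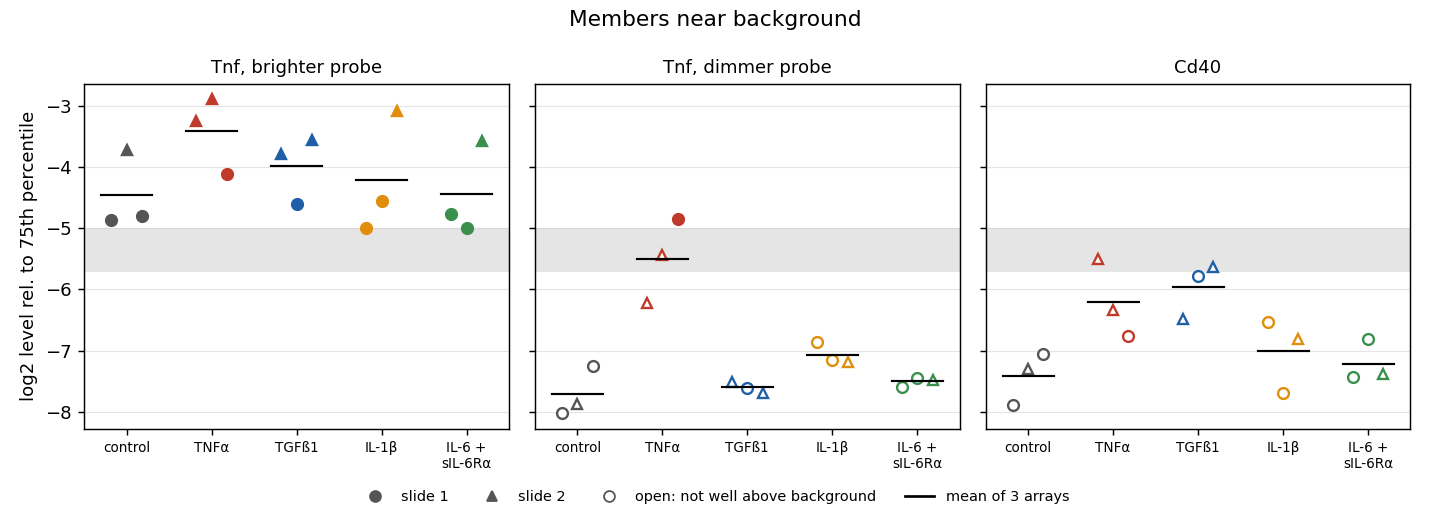
Level (log2 relative to the 75th percentile) of both *Tnf* probes and the *Cd40* probe on the 15 arrays, by group, with circles for slide 1, triangles for slide 2, open symbols where the spot was not well above background and a line at the mean; the grey band spans the dimmest level marked well above background, -5.72 to -4.99 over the arrays. The brighter *Tnf* probe split by slide, and the dimmer one was highest after TNFα, with 1 array above background.

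Each of the 9 members had 4 pairs of neighbours in the order of its 5 group means, 36 pairs in all, and 7 pairs were called, where 2.42% of such pairs were called over all probes tested. They were 3 pairs of *Fas*, 2 of *Birc3* (TNFα over IL1β, and control over TGFß1), 1 of *Traf1* (TNFα over IL1β) and 1 of *Tnfrsf11b* (TGFß1 over TNFα). *Tnf*, *Tnfrsf1a*, *Tnfrsf1b*, *Tnfrsf12a* and *Traf2* had no called neighbours. Between TNFα and IL1β directly, *Fas*, *Traf1* and *Birc3* were called higher after TNFα, 3 of 9 members where 4.83% of all probes were called (1.72% higher and 3.11% lower). Between TNFα and TGFß1 the same 3 were higher after TNFα and *Tnfrsf11b* was higher after TGFß1, 4 of 9 where 11.8% of all probes were called (6.81% higher after TNFα and 5.02% lower).

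The rest of the pathway was read in 75 further genes in 5 lists, of which 74 had a named probe and 53 were tested. TNFα called 8 of the 53 (15.1%, beside 10.2% of all probes), 4 higher and 4 lower. TGFß1 called 10 (18.9%, beside 18% of all probes, so close to the background), 4 higher and 6 lower. IL1β called 1 (1.89%, beside 0.252%), and IL6 called 0 in limma (beside 0.0648%), with 3 genes at an unadjusted p below 0.05. For these 3 as well, no share of all probes at the unadjusted limit is given. Among the 21 genes around the receptor complex and IKK, 3 rose after TNFα and none fell, where 4.12% of all probes were called higher and 6.06% lower, and the median difference of the list was 0.01 beside 0.04 over all probes. *Tnip1*, whose product ABIN1 works with A20 to restrain NF-kB, rose by 2.34 (SE 0.15, limma q-value 1.42e-06), and it was also the 1 gene called after IL1β, at 0.81 (limma q-value 0.0469), a call that did not survive the loss of 14 of the 15 arrays in turn. *Birc2*, which encodes cIAP1, rose by 0.84 after TNFα (limma q-value 0.00723) and fell by 0.64 after TGFß1 (limma q-value 0.0175), beside its relative *Birc3*. *Traf3*, an adaptor of CD40 and of the alternative NF-kB arm, rose by 0.95 after TNFα (limma q-value 0.000128) in a fit without IL6 8, whose spot was marked as an outlier; with that spot kept, the q-value was 0.371. After TGFß1, 3 genes of this list fell and none rose: *Cyld*, a deubiquitinase that restrains the pathway, by 1.31 (limma q-value 5.77e-05), *Map3k14*, the kinase NIK, by 0.88 (limma q-value 0.0184), and *Birc2*. These were 14.3% of the 21 genes, where 18% of all probes were called (7.17% higher and 10.8% lower), so the count is near the background.

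In the death receptor arm 1 of 10 genes was called after TNFα and after TGFß1, a share of 10% beside 10.2% and 18% of all probes. It was *Bid*, the BH3 protein that caspase-8 cleaves, which rose by 2.15 after TNFα (SE 0.23, limma q-value 9.34e-05) and by 0.79 after TGFß1 (SE 0.23, limma q-value 0.0266). *Fadd* and *Casp8*, the partners of Fas in its signalling complex, were at 0.19 (q-value 0.462) and -0.19 (q-value 0.624) after TNFα. *Mlkl*, the executor of necroptosis, was at 0.58 after TNFα (limma q-value 0.00715), a 1.49-fold difference just under the limit, and was called with the slide as a block (0.62, q-value 0.00166). Of the 17 ligands of the family, 5 were bright enough to be tested and 1 was called, *Tnfsf12* (TWEAK, the ligand of Fn14), which fell by 0.96 after TGFß1 (limma q-value 0.00568), beside the rise of its receptor gene *Tnfrsf12a*. That was 20% of the 5 ligands, near the 18% of all probes called after TGFß1.

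Of 22 other receptors, 13 were tested. TNFα called 2 of them, both lower (15.4%, beside 10.2% of all probes, 6.06% lower). TGFß1 called 3 higher and 1 lower (30.8%, beside 18% of all probes). *Tnfrsf21* (death receptor 6) and *Tnfrsf25* (death receptor 3) fell after TNFα, by 0.90 (limma q-value 0.00295) and by 1.01 (limma q-value 0.0136). The call of *Tnfrsf21* was lost with the mean over the probes of the gene (-0.36, q-value 0.0670) and both calls with normexp background correction (-0.57 and -0.52, under the fold limit). After TGFß1, *Relt* rose by 1.36 (limma q-value 2.46e-05), *Tnfrsf23*, a decoy receptor of TRAIL in mice, rose by 0.70 (limma q-value 0.00740) and *Tnfrsf13c*, the BAFF receptor, rose by 1.43 (limma q-value 0.0459), while *Tnfrsf25* fell by 0.78 (limma q-value 0.0301), a call also lost with normexp (-0.38, q-value 0.0961). Of the genes that shed TNF and its receptors, 4 of 5 were tested. TNFα called 2 of these 4 lower (50%, beside 10.2% of all probes) and TGFß1 called 1 lower (25%, beside 18%). *Timp3*, the inhibitor of ADAM17, fell by 3.43 after TNFα (SE 0.29, 10.8-fold, limma q-value 1.43e-05) and by 3.38 after TGFß1 (SE 0.29, 10.4-fold, limma q-value 1.16e-05). *Rhbdf1*, which carries ADAM17 to the cell surface, fell by 0.60 after TNFα (limma q-value 0.0415), and *Adam17* itself was at 0.18 (q-value 0.422). With 1 array left out at a time, the calls of *Timp3*, *Tnip1*, *Bid*, *Birc2*, *Traf3* and *Tnfrsf21* after TNFα and of *Timp3*, *Cyld*, *Relt* and *Tnfsf12* after TGFß1 were kept. After TGFß1, leaving out control 6 ended the calls of *Bid* (0.47 to 1.00 over the arrays left out), *Birc2* (-0.81 to -0.55), *Map3k14* (-1.05 to -0.68), *Tnfrsf13c* (1.17 to 1.63), *Tnfrsf23* (0.57 to 0.78) and *Tnfrsf25* (-0.91 to -0.68). Leaving out TGFß1 2 ended the same calls except that of *Tnfrsf23*. In addition, *Bid* was not called without TGFß1 7 or 12, *Birc2* without control 1 or TGFß1 12, *Map3k14* without control 11, and *Tnfrsf25* without TGFß1 7 or control 11. After TNFα, *Tnfrsf25* was not called without TNFα 4 or control 6 (-1.15 to -0.85). *Rhbdf1* lost its call without 9 of the 15 arrays (-0.77 to -0.42), and *Tnfrsf13c* without 12 of them. The calls of *Rhbdf1* after TNFα and of *Tnfrsf13c* and *Birc2* after TGFß1 were lost with the slide as a block.

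**Figure D4:**
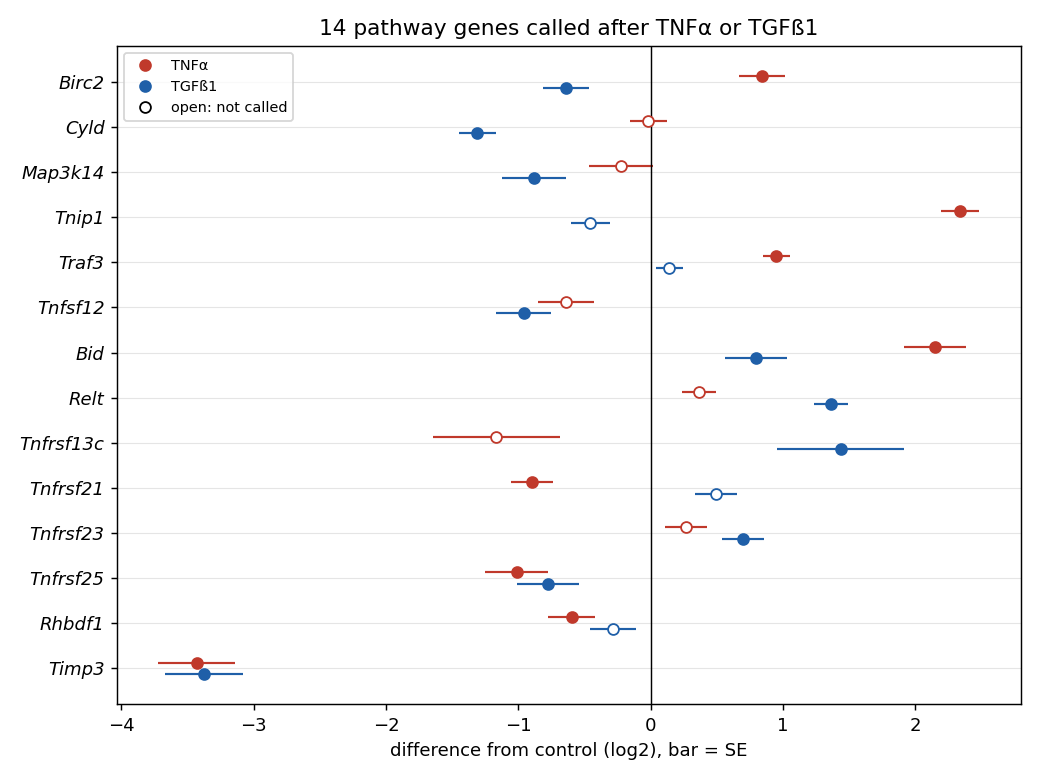
Difference from control (log2, bar = SE) after TNFα and after TGFß1 for the 14 genes of the 5 pathway lists called in at least 1 of the 2 comparisons; filled points were called. *Timp3* was lowest after both cytokines, *Bid* was higher after both, and *Birc2* was higher after TNFα and lower after TGFß1.

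The summed linear level of the 10 fibroblast markers, relative to the 75th percentile, was 1136 to 1391 on the control arrays, 828 to 1112 after TNFα and 946 to 1304 after TGFß1. This sum is weighted to the brightest genes, *S100a4* and *Col1a2* (mean log2 levels of 9.08 and 8.11 in control). After TNFα, *Dcn* (5.07 to 6.98) and *Lum* (-0.003 to 1.72) were higher, *Vim* was level (6.93 and 6.98) and the other markers were lower. After TGFß1 the markers also moved both ways, with *Col1a1* higher (6.49 to 7.08) and *Pdgfra* lower (3.01 to 1.01). The summed level of the 5 epithelial markers was 0.0487 to 0.131 on the control arrays, 0.0377 to 0.0534 after TNFα and 0.148 to 0.390 after TGFß1, with *Krt18* above background on 10 arrays, *Krt8* on 4, and *Cdh1* and *Krt5* above background on no array. The part of either shift in summed level in the values of the members was not tested.

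For each member tested other than *Tnfrsf1b*, the genes whose levels over the 15 arrays followed it most closely were picked by Pearson's r among 13486 genes, as a description over arrays that fall into 5 groups and share slides and runs. *Fas* was followed by *Ikbke*, an IKK-related kinase (r = 0.98), and *Ubd*, a ubiquitin-like protein known from TNF and interferon responses (r = 0.98). *Birc3* was followed by *Zfp429* (r = 0.98) and the class I gene *H2-Q7* (r = 0.98), and *Traf1* by *N4bp3* (r = 0.98) and *Bcl2l15* (r = 0.97). *Tnfrsf11b* was followed by *Tll1*, a procollagen-processing protease (r = 0.98), and *Memo1* (r = 0.98), and *Tnfrsf12a* by *Tial1* (r = 0.99) and *Gcsh* (r = 0.98). *Tnfrsf1a* was followed by *Sfxn5* (r = 0.98) and *Col12a1*, a fibril-associated collagen (r = 0.96), and *Tnf* by *Mb21d2* (r = 0.97) and *Il27* (r = 0.97). The *Tnf* levels used here split completely by slide, whatever the group. Whether *Mb21d2* and *Il27* follow *Tnf* beyond this split was not tested. The closest genes to *Traf2*, whose group means differed least among the members tested, reached 0.91 (*Ccdc166*) and 0.89 (*Zc3h3*).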

How the data were processed

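Total RNA of MEFs, 15 samples in all, was labelled with Cyanine 3 and scanned, and per the labels the spots were extracted by the authors with Agilent Feature Extraction 10.7.3.1. The deposited scanner files hold each spot's processed signal, an intensity after background subtraction that is not normalized between arrays, and a table of the series holds the same values (largest difference 0). Outlier spots were left out, log2 intensities were averaged per probe, and each array's 75th percentile over the spots that are not controls was subtracted. Probes well above background (at least 0.5 of a probe's spots) on every array of 1 group were tested. Probes were named by RefSeq accession through a GRCm38.p6 table (33767 of 56605 matched). One limma 3.58.1 fit (R 4.3.3) of all 15 arrays without covariates gave moderated two-sided tests with Benjamini-Hochberg adjustment over 29333 probes. It was tested on simulated data with independent noise on each array and no slide or run effect, so that test does not cover such effects. Several probes of a gene were represented by the brightest. The number of arrays limits the precision.

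The study's methods name limma and its thresholds but no normalization between arrays and no filter. Groups came from the labels. The labels do not say which arrays share an experiment; the label numbers form 3 runs of 5 arrays with 1 of each group. With the slide removed, all 30 pairs of arrays of the same run deviated together from their group means (r over 0.1, lowest 0.114), against 2 of 60 pairs of different runs, and without removing it 12 of 30 and 28 of 60. The members, the pathway lists, the markers and the motifs were chosen with earlier results of these data known. Genes named outside the members were the called pathway genes (at most 3 per direction, list and comparison with control), the 2 genes most alike to each member (those of *Tnfrsf1b* are not reported here), and *Fadd*, *Casp8*, *Adam17* and *Mlkl*, which were picked after their values were seen. The alternatives were slide and run as blocks, normexp on the median signal (the files used hold no mean signal) with an offset of 50, quantile normalization, other filters, spots and fold limits, fits of 2 groups, the series table, and each array left out. The 75th percentile over distinct probes was added after seeing the data. Promoters of *Tnfrsf11b* and *Cd40* were not analysed here.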

Additional observations from a re-analysis of the deposited data

How the results depend on the processing

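Of 153 counts of called genes under 14 alternatives, 139 stayed within 1.5 times the value reported, and no called difference of a member or a named pathway gene changed its direction. The series table holds the same values, so it could change no count, and a fit without a fold criterion cannot lose a call. The calls of *Fas*, *Traf1* and *Birc3* after TNFα, of *Fas* after TGFß1 and IL1β and of *Tnfrsf11b* after TGFß1 held without any 1 array and under all 14, except that *Tnfrsf11b* could not be tested where probes had to be above background on all 15 arrays. The size of the rise after TNFα varied more for the dimmer genes. Over the 14 it was 2.86 to 2.96 for *Fas*, 3.88 to 4.57 for *Traf1* and 1.58 to 2.40 for *Birc3* on the log2 scale. After TGFß1, *Tnfrsf12a* was not called with quantile normalization (0.66, q-value 0.0677), without a filter on dim probes (q-value 0.0660) or in a fit of the 2 groups alone (q-value 0.0817), and *Tnfrsf1a* was not called in the last (q-value 0.0555). Of the members called, TGFß1 against control fell from 5 to 2 with a fold-change of at least 2. In a fit of the 2 groups alone it fell to 3. With run and slide as blocks IL6 against control went from 0 to 1 (*Tnfrsf11b*) and TNFα against IL1β from 3 to 5. TNFα against control went from 4 to 6 and TGFß1 against control from 5 to 6 under the same blocks. The share over all probes moved as well. With the slide as a block it was 6.21% between TNFα and IL1β (4.83% without) and 11.9% for TNFα against control (10.2% without). It is not given for the other settings, so changes in the counts here and below are not results about the genes listed. Of the pathway genes, TNFα against control went from 8 to 14 without a fold criterion and to 4 with a fold of 2, and TGFß1 against control from 10 to 18 and to 4. IL1β against control went from 1 to 0 without a filter on dim probes, with the mean over the probes of a gene, in a fit of the 2 groups alone, with a fold of 2 and with the 75th percentile over distinct probes, and to 2 with run and slide as blocks. The cause was not tested, except that a stricter or absent fold criterion changes a count by construction.

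With each array left out in turn, the members called were 3 to 4 for TNFα against control, 3 to 5 for TGFß1 against control (3 without control 6, TGFß1 7 or TGFß1 12), 1 for IL1β, 0 for IL6, 3 to 4 for TNFα against IL1β and 4 to 5 for TNFα against TGFß1, and the called pairs of neighbours were 6 to 8. The pathway genes called were 7 to 9 for TNFα, 5 to 10 for TGFß1 (5 without TGFß1 2 and 6 without control 6), 0 to 1 for IL1β and 0 for IL6. Over all probes, the same fits called 1896 to 3043 for TNFα against control, 4074 to 5489 for TGFß1, 36 to 78 for IL1β and 5 to 22 for IL6. They called 688 to 1547 between TNFα and IL1β and 2832 to 3611 between TNFα and TGFß1, so the background moved as well. With the slide as a block *Tnf* was added to the members called after TNFα (0.64, q-value 0.0283), and it was not called with normexp background correction (0.46, q-value 0.217). *Cd40* entered the test only with no filter on dim probes; it was below background on all arrays, so its difference is not given.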
